A study of Mus musculus with 9 samples.

Results

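Isl1, Isl2, Pou4f1, Pou4f2, Pou4f3, Tlx3, Runx1 and Prdm12 encode transcription factors that set and keep the identity of sensory neurons, and their RNA was examined in mouse dorsal root ganglia (DRG). These 8 genes were found by their gene names among the 55247 genes of the deposited count table, each in 1 row. DRGs were taken from E18.5 embryos of 3 genotypes, with 3 libraries for each. WT embryos had unmodified Isl1 and Meis2. In Isl1Cre/+ embryos, 1 copy of Isl1 held Cre recombinase and Meis2 was unmodified. The third genotype, Isl1Cre/+::Meis2LoxP/LoxP (hereafter mutant), had the same Cre copy together with LoxP sites around exon 8 of both copies of Meis2. Cre is thus driven from the Isl1 locus and acts in cells in which this gene is or was active, and both Cre genotypes (the Cre carriers), including the Isl1Cre/+ animals that serve as controls for the mutant, have 1 modified copy of Isl1. The labels give neither the sex of the embryos nor whether each library holds the ganglia of a single embryo, so p-values measure the spread between these libraries, which may be partly technical.

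DRG neurons carry touch, position, temperature and pain signals from the body to the spinal cord. Isl1 and Pou4f1 (Brn3a) are made in almost all of them from the end of neurogenesis, and together they shut off earlier and spinal programmes and switch on sensory ones. Tlx3, Prdm12 and Runx1 act further along the nociceptor branch, Prdm12 in setting up the nociceptor lineage and Runx1 in the choice of its nonpeptidergic subtypes. The design asks whether a modified copy of Isl1 is accompanied by a lower level of its RNA and of that of its partners, and whether the deletion in Meis2 is accompanied by any further difference.

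The libraries held 23854607 to 29103444 counts, and WT library 1 and mutant library 2 stood apart, with median rank correlations with the other libraries of 0.981 and 0.979 against 0.991 to 0.995 for the rest. Meis2, the targeted gene, had 95.4 to 110 counts scaled to a common library size (cpm) in WT, 89.5 to 102 cpm in Isl1Cre/+ and 40.7 to 41.2 cpm in mutant libraries. Reads were counted per gene, and those of exon 8 were not counted apart. The tissue label was met by the sensory neuron markers Prph and Avil, at mean levels per length of 1143 and 231 cpm per kb of exon in WT. By contrast, 31 transcription factors of spinal cord and hindbrain all stayed under the 100 counts in any library needed for testing, and their summed level was 4.25 to 15.2 cpm. Irx3, Olig1 and Nkx6-1 led this list, at 0.557, 0.363 and 0.323 cpm per kb over all libraries. Spinal motor neurons also make Isl1 and Isl2, and the motor neuron list summed to 12.2 to 19.0 cpm, most of it Slc5a7, the choline transporter. In whole ganglia, fewer cells of a type and less RNA per cell cannot be told apart.

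The first result concerns Isl1, the LIM homeodomain factor that carries Cre. Isl1 (ENSMUSG00000042258.13) is a reverse-strand gene of chromosome 13 (116298281 to 116309689 in GRCm38, also called mm10) with 3959 exonic bases. It had 227, 273 and 284 cpm in the 3 WT libraries, 165, 191 and 202 cpm in the 3 Isl1Cre/+ libraries, and 216, 170 and 178 cpm in the 3 mutant libraries. The raw counts behind these values ran from 4327 to 8182. The lowest WT library, library 1, was above the highest Cre carrier library, mutant library 1, so that neither Cre genotype overlapped with WT. Of all genes tested, 2.71% lay wholly below WT in this way in Isl1Cre/+, 1.74% in the mutant and 0.311% in all 6 Cre carrier libraries. By contrast, both Cre genotypes overlapped with each other.

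Isl1 fell to 71.6% of the WT level in Isl1Cre/+ (95% interval 58.3% to 87.8%, unadjusted p = 0.00593 from edgeR's quasi-likelihood test) and to 71.7% in the mutant (57.9% to 88.8%, unadjusted p = 0.00756 from the same edgeR test). With the 6 Cre carrier libraries taken as 1 group against WT, the level was 71.4% (61.2% to 83.3%), a log2 fold change of -0.49 with a standard error of 0.1004 (unadjusted p = 0.000605 from edgeR's test). An exact two-sided permutation test of this comparison gave p = 0.0119, the smallest that the 84 splits allow. By unadjusted edgeR p, Isl1 ranked 14th among the 13200 genes tested in Isl1Cre/+ against WT, and number 2 in Cre carriers against WT. The Benjamini-Hochberg adjusted p over all genes was 0.9998 or higher in each of these edgeR comparisons, and so Isl1 did not pass the corrected threshold. A level of 50% of WT lay below each of the 3 intervals. Counts are per gene and do not tell the RNA of the modified copy from that of the other. Which Isl1 exons the transcript of the Cre copy keeps is not given in the sources used here, so some of its reads may be counted as Isl1.

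Between the mutant and Isl1Cre/+, which share the Isl1 alleles, the log2 fold change of Isl1 was 0.013, smaller than its standard error of 0.113. The 95% interval of -0.25 to 0.28 covers changes in either direction. Scaling to library size only gave -0.015, where the median of all genes tested was -0.024, and relative to that median Isl1 stood at 0.0097.

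**Figure D1:**
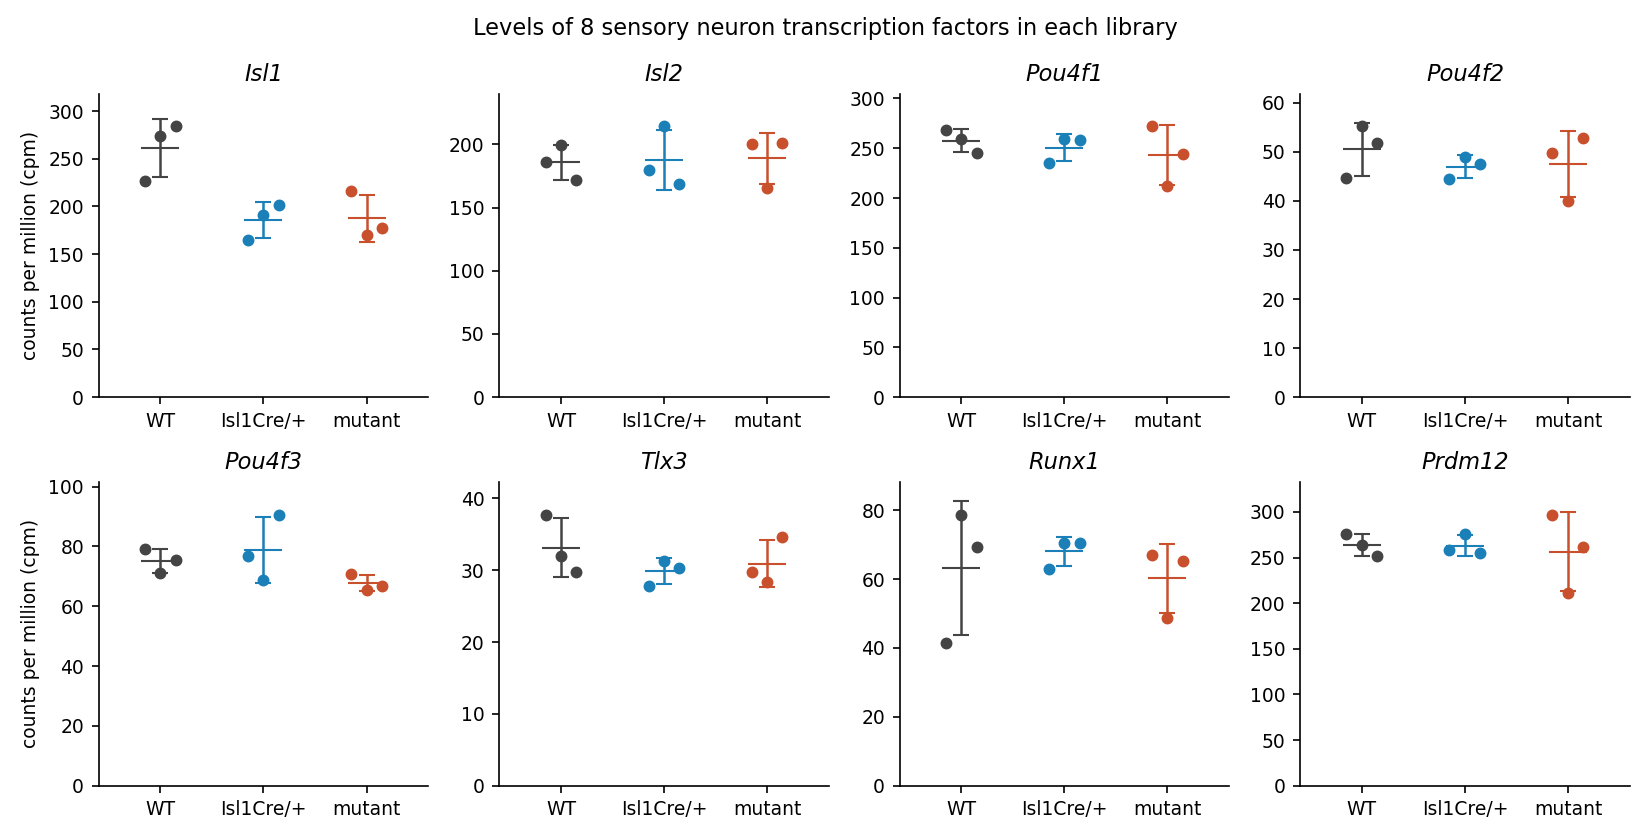
Counts scaled to a common library size (cpm, vertical axis, from 0) of the 8 genes in each library of the 3 genotypes (horizontal axis), where points are libraries and lines are means ± SD (n = 3). All 6 Isl1Cre/+ and mutant libraries lie below the 3 WT libraries for Isl1, between 165 and 216 cpm, whereas the groups overlap for most other genes.

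Isl2, the other Islet factor, did not share the lower level of Isl1. Isl2 (ENSMUSG00000032318.12; chromosome 9, 55538672 to 55546180, forward strand) had 186, 200 and 172 cpm in WT, 180, 214 and 168 cpm in Isl1Cre/+ and 200, 165 and 201 cpm in mutant libraries. All 3 genotypes overlapped. Relative to WT, Isl2 had a log2 fold change of 0.024 in Isl1Cre/+ (95% interval -0.23 to 0.28) and 0.023 in the mutant (-0.23 to 0.28). It was 0.0091 for the mutant relative to Isl1Cre/+ (-0.26 to 0.28). For Cre carriers against WT it was 0.018, and this interval (-0.19 to 0.23) lies entirely above that of Isl1 (-0.71 to -0.26).

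Isl1 and Isl2 share most of their homeodomain, so it matters whether a read can be assigned to one of them. Reads had 84 bases as sequenced and fewer when aligned, since their molecular identifiers were taken out first, and the aligned length is not given in the sources used here. The most alike stretch of 84 bases in their transcripts is given because it is where counts could most easily be mixed up. Capitals mark the bases at which the pair differ. Both stretches are coding and lie in exon 4 of 6, read 5′ to 3′ along the gene, for Isl1 at chr13:116303213-116303296 on the reverse strand and for Isl2 at chr9:55544109-55544192 on the forward strand of GRCm38.
Isl1: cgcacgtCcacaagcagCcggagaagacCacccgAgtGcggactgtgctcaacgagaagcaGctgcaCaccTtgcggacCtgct
Isl2: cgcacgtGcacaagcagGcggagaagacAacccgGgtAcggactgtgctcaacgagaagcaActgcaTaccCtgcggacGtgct
They differ at 9 of 84 bases (89.3% identical), and the longest identical run is 23 bases. No 84-base window of an annotated Isl1 or Isl2 transcript occurs in a transcript of another gene, and shorter windows were not tested against all transcripts.

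Because a ratio of 2 genes within a library does not depend on how libraries are scaled to each other, Isl1 was also set against its partners directly. The ratio of Isl1 to Isl2 counts was 1.22, 1.37 and 1.65 in the WT libraries, 0.916, 0.892 and 1.198 in those of Isl1Cre/+ and 1.08, 1.03 and 0.884 in those of the mutant. The mean was 1.41 ± 0.220 (SD, n = 3) in WT and 0.999 ± 0.125 (SD, n = 6) in Cre carriers, and the groups did not overlap (exact two-sided permutation test, p = 0.0119). WT library 1 and Isl1Cre/+ library 3, the nearest libraries of the 2 groups, were 1.22 and 1.198.

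The ratio of Isl1 to Pou4f1 separated the groups in the same direction. It was 0.846, 1.05 and 1.16 in the WT libraries, 0.700, 0.739 and 0.782 in those of Isl1Cre/+ and 0.792, 0.800 and 0.727 in those of the mutant. Its log2 difference between Cre carriers and WT was -0.42 (exact permutation p = 0.0119), with every carrier library below every WT library. The ratio of Isl2 to Pou4f1, in which Isl1 has no part, was 0.721 ± 0.0417 (SD, n = 3) in WT and 0.764 ± 0.0647 (SD, n = 6) in Cre carriers and overlapped (exact permutation p = 0.357). With 1 Cre genotype alone against WT, 3 libraries against 3, no exact permutation test can go below p = 0.1, and both Isl1 ratios reached that value.

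**Figure D2:**
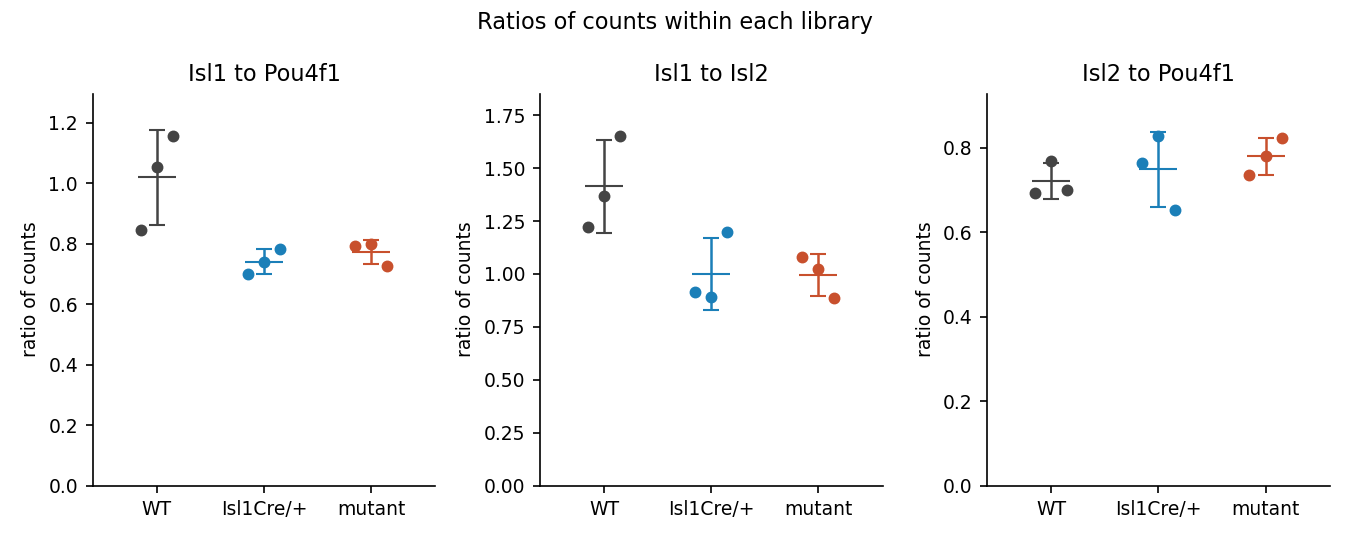
Ratio of the counts of a pair of genes within each library (vertical axis, from 0) for the 3 genotypes, where points are libraries and lines are means ± SD (n = 3). Both ratios that contain Isl1 are lower in all 6 Cre carrier libraries than in the 3 WT libraries, and Isl2 to Pou4f1, at 0.653 to 0.828 in all libraries, overlaps between genotypes.

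Among the POU4 factors, Pou4f1 is the partner of Isl1 in most DRG neurons. Pou4f1 (ENSMUSG00000048349.9; chromosome 14, 104461676 to 104467999, reverse strand) had 268, 260 and 246 cpm in WT, 235, 259 and 258 cpm in Isl1Cre/+ and 272, 212 and 244 cpm in mutant libraries. The genotypes overlapped, and mutant libraries 1 and 2 were the highest and the lowest of all 9. In Isl1Cre/+ it stood at 98.0% of WT (95% interval 86.4% to 111%), and in the mutant at 94.2% (78.6% to 113%).

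Pou4f2 (Brn3b; ENSMUSG00000031688.4; chromosome 8, 78433010 to 78436645, reverse strand), known for its role in retinal ganglion cells, had 44.6, 55.3 and 51.8 cpm in WT, 44.4, 48.9 and 47.6 cpm in Isl1Cre/+ and 49.8, 40.02 and 52.8 cpm in mutant libraries. Set against WT, the log2 fold change was -0.098 for Isl1Cre/+ (95% interval -0.34 to 0.15) and -0.089 for the mutant (-0.40 to 0.22). These groups overlapped as well. Without WT library 1, Pou4f2 in Isl1Cre/+ relative to WT was -0.20 (unadjusted p = 0.0232 from edgeR), still under a 1.2-fold change. Without WT library 2 it was -0.020.

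Among the pairs compared, which were the Islet genes and those within POU4, Pou4f1 and Pou4f2 are the most alike. Their closest 84-base stretches, shown for the same reason as those of the Islet genes, are coding and lie in exon 2 of 3 of Pou4f1 (chr14:104466041-104466124, reverse strand) and exon 2 of 2 of Pou4f2 (chr8:78435049-78435132, reverse strand), with differing bases in capitals.
Pou4f1: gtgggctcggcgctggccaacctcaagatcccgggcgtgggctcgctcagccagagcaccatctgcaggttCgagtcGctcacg
Pou4f2: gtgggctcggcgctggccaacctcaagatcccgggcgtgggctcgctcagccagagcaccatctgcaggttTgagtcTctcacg
Only 2 of 84 bases differ, and 71 bases in a row are identical. Pou4f3 differs from either at 7 of 84 bases in its closest stretch. No 84-base window was shared with another gene for any of the 3 POU4 genes or for Tlx3. An aligned read of 71 bases or fewer could lie wholly within the identical run of Pou4f1 and Pou4f2, where these genes cannot be told apart.

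Pou4f3 (Brn3c; ENSMUSG00000024497.4; chromosome 18, 42394539 to 42397249, forward strand), best known from hair cells of the inner ear, had 79.2, 71.1 and 75.3 cpm in WT, 76.6, 68.8 and 90.6 cpm in Isl1Cre/+ and 70.6, 65.4 and 66.9 cpm in mutant libraries. All mutant libraries lay below all WT libraries, the nearest pair at 70.6 and 71.1 cpm, as did 1.74% of all genes tested, but the mutant overlapped with Isl1Cre/+. Mutant Pou4f3 differed from WT by -0.15 on the log2 scale (95% interval -0.34 to 0.038, unadjusted p = 0.101 from edgeR) and -0.22 relative to Isl1Cre/+ (-0.46 to 0.019, unadjusted p = 0.0662 from edgeR), and neither met the criterion. Without Isl1Cre/+ library 2 the second was -0.31 and met it (unadjusted p = 0.0153 from edgeR; over all alternatives of this comparison the adjusted p was at least 0.867). Without Isl1Cre/+ library 3, the highest of all 9 at 90.6 cpm, it was -0.10.

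Tlx3, a homeobox factor of glutamatergic and nociceptive neurons (ENSMUSG00000040610.7; chromosome 11, 33200752 to 33203589, reverse strand), had 37.8, 31.9 and 29.8 cpm in WT, 27.8, 31.3 and 30.3 cpm in Isl1Cre/+ and 29.7, 28.4 and 34.7 cpm in mutant libraries. WT library 1 was the highest of all and the rest overlapped. Its log2 fold changes were -0.14 in Isl1Cre/+ (95% interval -0.38 to 0.10) and -0.10 in the mutant (-0.39 to 0.19) relative to WT, within the spread between libraries.

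Runx1, the runt domain factor of nociceptors (ENSMUSG00000022952.17; chromosome 16, 92601466 to 92826149, reverse strand), varied most of the 8 among WT libraries. It had 41.3, 78.7 and 69.4 cpm in WT, 63.0, 70.4 and 70.6 cpm in Isl1Cre/+ and 66.8, 48.7 and 65.1 cpm in mutant libraries. The low WT value belonged to library 1 and the low mutant value to library 2, and the coefficient of variation in WT was 30.8%. The fold changes were therefore imprecise, at 0.11 on the log2 scale in Isl1Cre/+ (95% interval -0.41 to 0.64) and -0.069 in the mutant (-0.63 to 0.49) relative to WT. Without WT library 1 the first turned to -0.13 and the second went to -0.30. An antisense gene, Gm26626, overlaps 106 of its 12025 exonic bases (0.88%).

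Prdm12, a PR domain factor needed for nociceptors (ENSMUSG00000079466.2; chromosome 2, 31640037 to 31655795, forward strand), had 275, 264 and 252 cpm in WT, 259, 276 and 255 cpm in Isl1Cre/+ and 297, 211 and 261 cpm in mutant libraries. Mutant libraries 1 and 2 were again the extremes, and the groups overlapped. The level in Isl1Cre/+ was 100.5% of WT (95% interval 89.3% to 113%), and in the mutant it was 97.2% (78.4% to 121%). Exons of the antisense gene Gm13425 cover 200 of its bases (8.09%), and without a stated strand option reads of the pair cannot be told apart there.

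The criterion of the study asks for a 1.2-fold change or more with p below 0.05 before adjustment. The paper relates this cutoff to the changes it measured for Meis2 and Isl1 in the same data. That Isl1 meets it is therefore no independent support for a lower Isl1 level. By it, 1 of the 8 genes, Isl1, was lower in Isl1Cre/+ than in WT, where 1.14% of all genes tested were lower and 1.4% changed in either direction. Isl1 was again the 1 gene of the 8 lower in the mutant than in WT, against 0.258% of all genes lower and 0.318% changed. In Cre carriers against WT the count was 1 of 8 as well, against 0.311% lower and 0.447% changed. Between the mutant and Isl1Cre/+, 0 of 8 met the criterion and 0 of 8 had an unadjusted p under 0.05 in edgeR, where 1.67% of all genes met it and 2.73% had such a p; DESeq2 and limma voom also called 0 of 8. After adjustment none of the 8 was below 0.05 in any edgeR comparison, where 0.00758% of all genes, the single gene Meis2, was in the mutant against WT and likewise in the mutant against Isl1Cre/+. The comparisons share libraries, WT in 3 of them, and are not independent of one another.

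**Figure D3:**
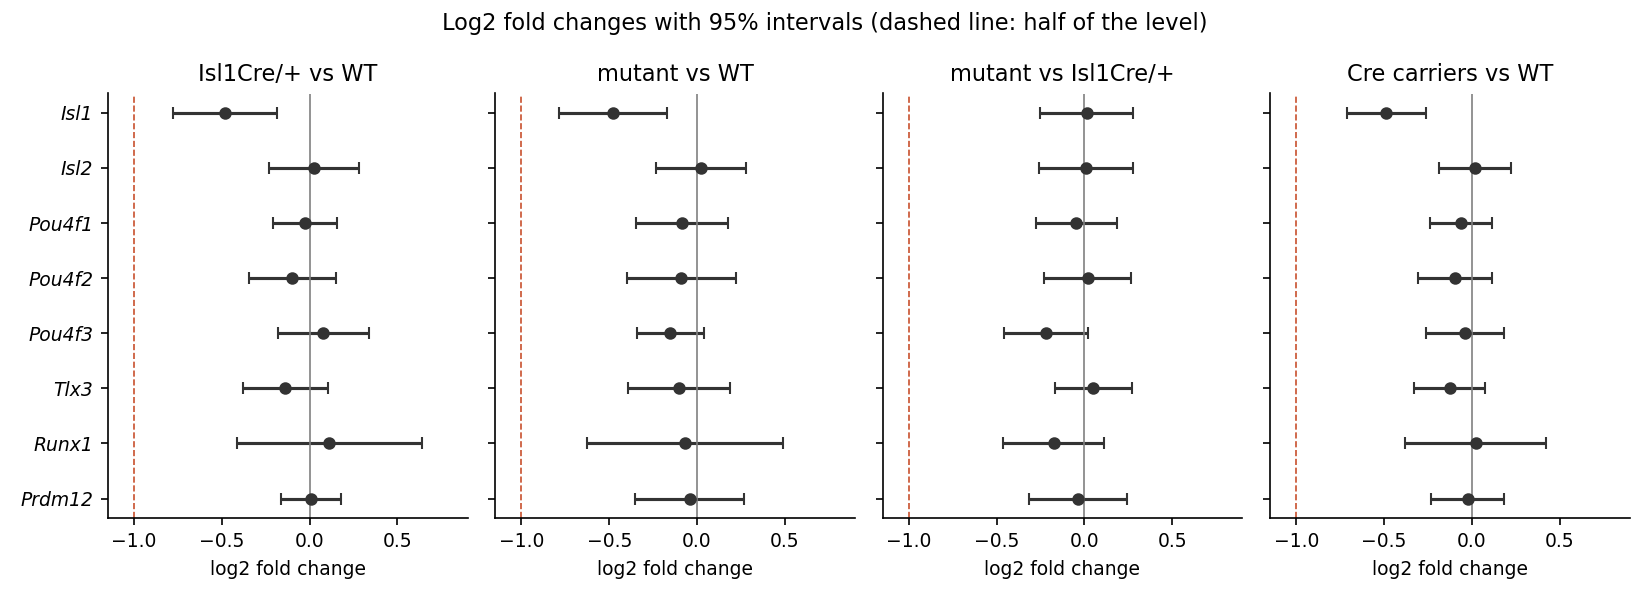
Log2 fold change (horizontal axis) of the 8 genes in the 4 comparisons, where points are edgeR estimates, bars their 95% intervals, the grey line no change and the dashed line 50% of the reference level. The interval of Isl1 lies between the dashed and the grey line in each comparison with WT, and all other intervals include 0.

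Direction over the 8 genes was described by medians. Their median log2 fold change was -0.011 in Isl1Cre/+ against WT, -0.087 in the mutant against WT and -0.014 in the mutant against Isl1Cre/+, and that of all genes tested was -0.0016, -0.0094 and 0.00029. Of the 8, 4 were below 0 in the first, 7 in the second and 4 in the third comparison, where 50.7%, 53.8% and 49.8% of all genes tested were. Beside this, mutant library 2 held the lowest level of all 9 libraries for 5 of the 8 genes, Isl2, Pou4f1, Pou4f2, Pou4f3 and Prdm12. The same library had the highest summed levels of skeletal muscle genes (2282 cpm, against 66.1 to 972 in the others), red blood cell genes (3966 cpm, against 343 to 2210) and macrophage genes (148 cpm, against 58.5 to 89.7), and the part of these tissues in the levels was not tested. Without WT library 1 and mutant library 2, a choice made after seeing the data, Pou4f1, Tlx3 and Prdm12 in the mutant relative to WT turned to 0.038, 0.066 and 0.12, and Isl1 still met the criterion.

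Compared per length of exon, the levels formed an order that the genotypes nearly shared. In WT, Prdm12 was highest at 107 ± 4.70 cpm per kb (SD, n = 3), followed by Isl2 at 84.7 ± 6.30, Isl1 at 66.1 ± 7.68 and Pou4f1 at 55.2 ± 2.46. Pou4f3 (31.3 cpm per kb), Tlx3 (21.6), Pou4f2 (15.8) and Runx1 (5.25) came next. Of neighbours in this WT order, those that overlapped between libraries were Isl1 and Pou4f1, and the rest did not. In both Cre genotypes Pou4f1, at 53.7 and 52.0 cpm per kb in Isl1Cre/+ and mutant, came before Isl1, at 47.0 and 47.4, although the pair still overlapped. In the mutant, Prdm12 and Isl2 overlapped too. Length was that of all annotated exons, which a gene need not use in full.

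**Figure D4:**
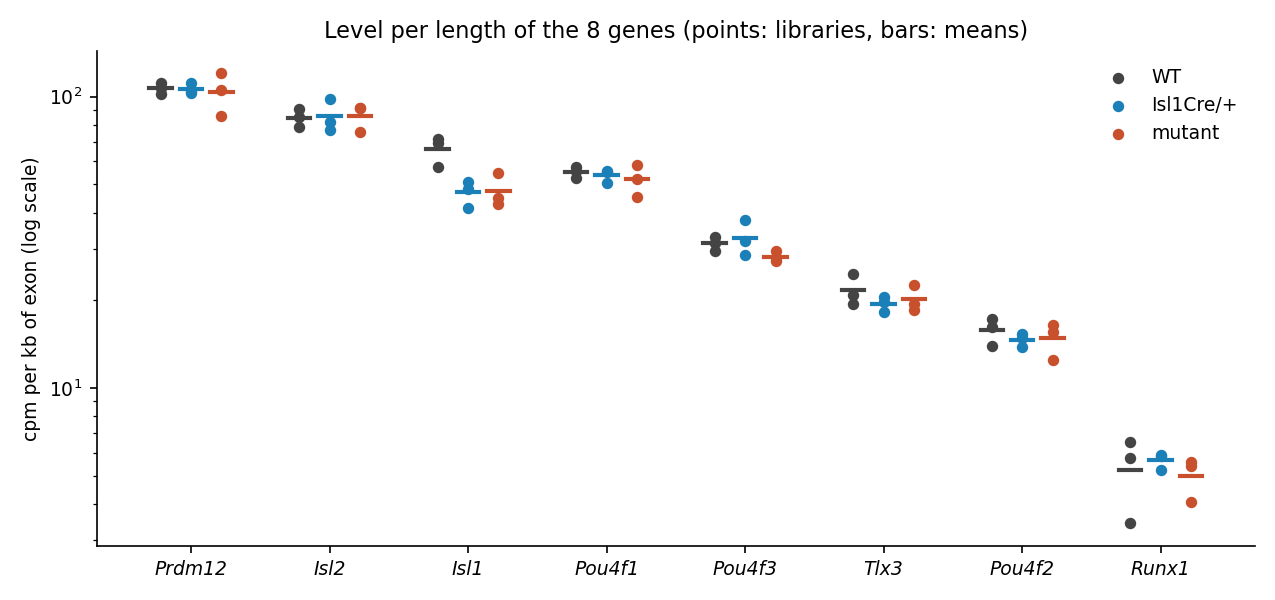
Level per length (cpm per kb of exon, log scale, vertical axis) of the 8 genes, ordered by their WT mean, where points are libraries and bars means of 3 libraries. Isl1 shifts below Pou4f1 in both Cre genotypes and the other genes keep their place.

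Partners and targets of these factors were then examined as lists. Of 30 other transcription factors of sensory neurons, 27 were tested, and the highest per length were Prrxl1 (52.2 cpm per kb over all libraries), Klf7 (46.5) and Ebf1 (30.0). Neurog1 and Neurog2, which start sensory neurogenesis, were at or under 0.0760 cpm in every library. In Isl1Cre/+ against WT, where 1.14% of all genes tested were lower and 1.4% met the criterion, 1 of the 27 was lower and 0 higher. This was Hoxc8, a positional Hox gene, at 13.3, 9.59 and 10.1 cpm in WT and 8.58, 9.19 and 7.44 cpm in Isl1Cre/+ (log2 fold change -0.37, unadjusted p = 0.0377 from edgeR). The call was lost without WT library 1 (-0.24, unadjusted p = 0.0742 from edgeR), Isl1Cre/+ library 1 (-0.38, unadjusted p = 0.0760 from edgeR) or Isl1Cre/+ library 3 (-0.30, unadjusted p = 0.122 from edgeR). Hoxc8 was higher again in the mutant than in Isl1Cre/+ (0.33, unadjusted p = 0.0197 from edgeR), at 11.01, 9.88 and 10.8 cpm, and overlapped with WT. This call too was lost without Isl1Cre/+ library 3, mutant library 1 or mutant library 3, at 0.25, 0.29 and 0.31 on the log2 scale.

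In the mutant against WT 0 of these 27 met the criterion by edgeR, where 0.318% of all genes did, and 0 had an unadjusted p under 0.05. In Cre carriers against WT, where 0.311% of all genes tested were lower, Mafa, a factor of low-threshold mechanoreceptors, was lower (-0.38, unadjusted p = 0.0227 from edgeR). It was at 17.1, 10.6 and 11.7 cpm in WT against 8.63 to 10.9 cpm in carriers, with WT and carriers overlapping. The Mafa call rested on WT library 1, without which the log2 fold change was -0.15 (unadjusted p = 0.188 from edgeR). Without WT library 2, Mafa met the criterion in Isl1Cre/+ (-0.47, unadjusted p = 0.0325 from edgeR) and in the mutant (-0.55, unadjusted p = 0.0329 from edgeR) relative to WT. The median log2 fold change of the 27 was -0.052 in Isl1Cre/+ against WT, -0.074 in the mutant against WT and -0.0011 in the mutant against Isl1Cre/+, with 21, 20 and 15 of 27 below 0, where 50.7%, 53.8% and 49.8% of all genes tested were.

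Of the cofactors through which the factors act, such as the LIM domain binding proteins, the Runx partner Cbfb, Tle corepressors and the Prdm12 partner Ehmt2, 17 of 17 were tested and none met the criterion in any of the 4 edgeR comparisons, where 0.318% to 1.67% of all genes did. The single unadjusted p under 0.05 among them belonged to Ehmt1 in the mutant against Isl1Cre/+ (log2 fold change -0.15, unadjusted p = 0.0301 from edgeR), and rose above 0.05 without library 1 or library 2 of either genotype. Ldb2 (88.4 cpm per kb over all libraries), Cbfb (56.8) and Tle4 (27.5) were the highest. Ldb1, which bridges LIM homeodomain factors, was at 129, 88.7 and 78.2 cpm in WT and 84.7 to 99.8 cpm in Isl1Cre/+ libraries, with WT library 1 above all others.

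Of 24 nociceptor and thermoceptor genes, the branch in which Runx1 and Prdm12 act, 19 were tested, and 0 met the criterion in Isl1Cre/+ against WT, where 1.4% of all genes did. Mrgprx1 and Calca were the highest per length, at 279 and 218 cpm per kb. In the mutant against WT, where 0.258% of all genes tested were lower, 2 of the 19 were lower, both by less than 1.5-fold. Trpv1, the capsaicin and heat channel, fell from 52.3, 62.7 and 53.7 cpm to 41.5, 43.3 and 43.5 cpm (log2 fold change -0.39, unadjusted p = 0.00387 from edgeR), and Th, the rate-limiting enzyme of catecholamine synthesis, from 17.8, 18.2 and 16.6 cpm to 13.9, 13.9 and 14.5 cpm (-0.31, unadjusted p = 0.0145 from edgeR). Both had an adjusted p of 0.9999 in that edgeR comparison, and relative to Isl1Cre/+ neither met the criterion. Without WT library 2 the call of Th was lost (-0.28, unadjusted p = 0.0601 from edgeR). Relative to Isl1Cre/+, Trpv1 was at -0.28 (unadjusted p = 0.0588 from edgeR), met the criterion without Isl1Cre/+ library 1 (-0.38, unadjusted p = 0.0163 from edgeR) and was at -0.12 without Isl1Cre/+ library 3. Th is also a marker of sympathetic neurons and stands on their list too, so its lower level cannot be assigned to nociceptors or thermoceptors. All 3 tested genes of the sympathetic list were below 0 in the mutant against WT, Dbh and Slc6a2 without meeting the criterion.

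**Figure D5:**
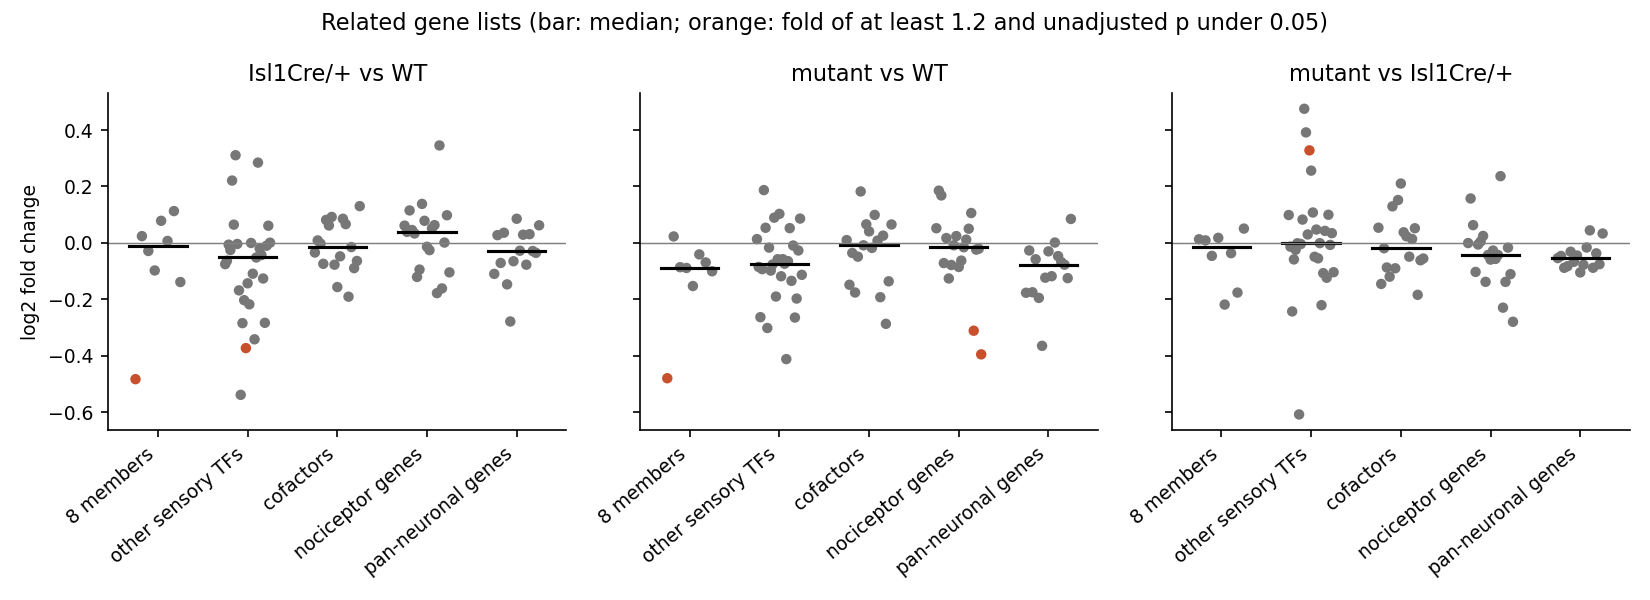
Log2 fold change (vertical axis) of each tested gene in 5 lists (horizontal axis) for 3 comparisons, where points are genes, bars list medians, and orange points meet the criterion of a 1.2-fold change with an unadjusted p under 0.05 in edgeR. Isl1 is the orange point among the 8 genes in both comparisons with WT, and the cofactor and pan-neuronal lists hold none.

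The amount of neuronal RNA was compared beside these results, since the 8 genes were chosen as factors of sensory neurons. Whether other cells of the ganglia also made them was not tested. Of 15 pan-neuronal genes and 9 sensory neuron markers tested, none met the criterion or had an unadjusted p under 0.05 in any edgeR comparison, where 0.318% to 1.67% of all genes met the criterion. The median log2 fold change of the pan-neuronal genes was -0.029 in Isl1Cre/+ against WT, -0.077 in the mutant against WT and -0.054 in the mutant against Isl1Cre/+, with 9, 13 and 13 of 15 below 0. That of the sensory neuron markers was -0.026, -0.063 and -0.043, with 6, 5 and 7 of 9 below 0. Of all genes tested, 50.7%, 53.8% and 49.8% were below 0 in these comparisons. In the mutant against WT, where 7 of the 8 transcription factors lay below 0, the medians of both lists were thus below that of all genes too, and their part in the levels of the 8 was not tested. The pan-neuronal sum was 29265 cpm in WT library 1, led by the neurofilament genes Nefl (8108 cpm) and Nefm (8539 cpm), and 18568 to 23463 cpm in the other libraries. When libraries were scaled to this sum, Isl1 no longer met the criterion in Isl1Cre/+ against WT (-0.46, unadjusted p = 0.0892 from edgeR) or in the mutant against WT (-0.40, unadjusted p = 0.129 from edgeR), but still did in Cre carriers against WT. This scaling moved the median of all genes tested to 0.049 in the first and 0.11 in the second comparison, and relative to that median Isl1 was at -0.51 in both. Scaled to the median ratio of the same genes, an alternative added after seeing the data, it met it in all 3.

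Some markers of other cells also differed between genotypes. In Isl1Cre/+ against WT, 6 of 6 red blood cell and 7 of 7 tested skeletal muscle genes were lower, where 1.14% of all genes tested were. All of these were higher in the mutant than in Isl1Cre/+, where 1.67% of all genes met the criterion in either direction. Genes of the same list can move together with the amount of that tissue in a library, so they are not separate results. The red blood cell sum was 896 to 2135 cpm in WT, 343 to 981 cpm in Isl1Cre/+ and 1210 to 3966 cpm in mutant libraries, and the muscle sum 130 to 972, 66.1 to 180 and 147 to 2282 cpm. Schwann and satellite glial genes, fibroblast genes, dividing cell genes, macrophage genes and glial genes of the central nervous system held none that met the criterion in Isl1Cre/+ against WT, whereas Kdr and Pecam1 of the endothelial list were higher and Cpa3 of the mast cell list and Sox9 and Ibsp of the cartilage and bone list lower. Between mutant and Isl1Cre/+, Dbh of the sympathetic list, Cpa3, Sox9 and Acan met the criterion as higher and Kdr as lower. The part of these cells in the lower Isl1 level was not tested.

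Sympathetic neurons also make Isl1. Their list summed to 21.4 to 35.0 cpm in WT, 14.4 to 18.45 cpm in Isl1Cre/+ and 16.1 to 23.3 cpm in mutant libraries, most of it Th, and was thus lower in every Isl1Cre/+ library than in WT and overlapped with WT in the mutant. Dbh, which makes noradrenaline, had 0.376, 4.88 and 1.46 cpm in WT, 0, 0.357 and 0 cpm in Isl1Cre/+ and 0.376, 0.494 and 1.97 cpm in mutant libraries. Slc6a2, the noradrenaline transporter, had 0.188, 5.88 and 1.22 cpm in WT, 0.0340, 0.286 and 0.0353 cpm in Isl1Cre/+ and 0.0752, 0.266 and 2.38 cpm in mutant libraries. WT library 2 and mutant library 3 held the highest levels of both genes in their genotypes. Only in WT library 2 did either gene reach the 100 counts needed for testing, and entry through a WT library favours calls lower than WT. By the criterion both were lower in Isl1Cre/+ than in WT, and these calls are no independent evidence of a difference. Dbh (log2 fold change -4.21) met it with any 1 library left out, at -2.93 without WT library 2. Its fitted size depended on Isl1Cre/+ library 2, the 1 library of that genotype above 0, without which it was -9.00 and, for the mutant relative to Isl1Cre/+, 7.67, and such a fit against libraries at 0 is no measure of size. The call of Slc6a2 (log2 fold change -4.33) was lost without WT library 2 (-2.55, unadjusted p = 0.0559 from edgeR) or Isl1Cre/+ library 1 (-3.89, unadjusted p = 0.0524 from edgeR). In the mutant against WT neither met the criterion, and without WT library 2 Dbh went from -1.26 to 0.019 and Slc6a2 from -1.44 to 0.33, whereas without mutant library 3 they were -2.36 and -3.80 and Slc6a2 met it (unadjusted p = 0.0479 from edgeR). In Cre carriers against WT neither met it, at -2.11 and -2.29. Without WT library 2 these were -0.83 and -0.52, and both genes met it without WT library 1 (-2.61 and -2.84) or mutant library 3 (-3.20 and -4.10). Relative to Isl1Cre/+, mutant Dbh was higher (2.95, unadjusted p = 0.0458 from edgeR), a call lost without Isl1Cre/+ library 1 or 3 or mutant library 3 (2.37, 2.38 and 1.85), and Slc6a2, at 2.88, did not meet the criterion but did without mutant library 1 or 2 (3.43 and 3.32), and was 0.52 without mutant library 3. The part of sympathetic neurons in the lower Isl1 level was not tested.

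Over the 9 libraries and among 10407 genes with at least 10 cpm, the 3 genes whose levels were most like those of Isl1 were Exoc6 (Pearson's r = 0.92 of log2 cpm), Dbpht2 (0.90) and Ppm1e (0.89). Exoc6, an exocyst subunit, spanned a narrow range, from 53.5 to 58.0 cpm. Dbpht2 had 10.4, 13.6 and 12.1 cpm in WT, 9.02, 10.3 and 11.3 cpm in Isl1Cre/+ and 10.6, 9.31 and 9.44 cpm in mutant libraries, and Ppm1e, a protein phosphatase, ran from 65.6 to 76.0 cpm. The libraries share their genotype, depth and tissue content, and these values are descriptions.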

How the data were processed

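DRG RNA of 9 libraries was measured. The authors selected poly(A) RNA, prepared CORALL libraries with molecular identifiers, took the identifiers out of the 84-base single-end reads with UMI-tools, aligned the remaining bases to mm10 with STAR 2.7.10, removed duplicates and counted unique reads per gene with HTSeq 0.6. The deposited counts are not normalized. The annotation release and strand option are not given in the sources used here. The deposited log2 fold changes and log2 mean levels, p-values and scores (moderated statistic, log odds) come from limma voom fits of the authors and were not used.

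Identifiers were matched to GENCODE M21 on GRCm38, 54855 of 55247 with the same version and 55154 without it. Genes reaching 100 counts in any library (13200) were normalized by TMM and tested with edgeR 4.0.16 in R 4.3.3 by the two-sided quasi-likelihood test, each pair of genotypes alone, and Cre carriers against WT over all libraries, with Benjamini-Hochberg adjustment over all genes tested. Cpm use TMM-scaled library sizes. A call, after the study's methods, required a 1.2-fold change or more with p below 0.05 before adjustment. Intervals of fold changes are not adjusted for the number of genes. Single values were also tested by exact permutation. The procedure was tested on simulated data. Within genotypes, the variance of the 8 genes was 2.81 to 192 times that of counting, so precision is limited by the spread between libraries more than by depth.

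Groups came from the labels. Replicate numbers were checked as pairs: deviations of same-numbered libraries correlated between -0.595 and 0.389, with 4 of 9 pairs over 0.1, so the numbers were not taken as pairs. Alternatives were other scalings, filters, tools (DESeq2 1.42.0, limma 3.58.1), all genotypes in 1 fit, the replicate block, other fold thresholds and leaving out libraries (for list genes, and changes relative to the median of all genes, added after seeing the data). The 8 genes, the lists and the pooling of Cre carriers were chosen with earlier results of these data known. Genes named are the 8, Meis2, per list those called (at most 4 per comparison) and the 3 highest per length, and the 3 most like Isl1. Not every gene so chosen is reported here. Prph and Avil, Neurog1, Neurog2 and Ldb1 are named from the lists with their values seen, and genes of marker lists are given in part. Drgx was not found under that symbol, Prrxl1 was.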

Additional observations from a re-analysis of the deposited data

Results flagged for a closer look

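Runx1 in mutant library 2 stood apart from the other Cre carriers. Among these 6 libraries it was lowest at 48.7 cpm, with the next at 63.0 cpm, a gap of 0.655 of the whole range, above Dixon's 95% critical value for 6 samples. Each of the 8 genes was examined in this way, and by chance about 5% of such groups are expected to be so marked. Without this library the log2 fold change of Runx1 between mutant and Isl1Cre/+ was -0.038, against -0.18 with it.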

How the results depend on the processing

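Isl1 in Cre carriers against WT met the criterion in all 20 alternatives (log2 fold change -0.58 to -0.42 with libraries left out), with an adjusted p between 0.190 and 0.99999 in edgeR, DESeq2 or limma. The paper relates this criterion to the change of Isl1 itself. Scaled to the summed pan-neuronal genes, Isl1 was -0.46 in Isl1Cre/+ and -0.40 in the mutant relative to WT and 0 of the 8 genes met the criterion in each, and at a fold change of 1.5 it was 0 in all 3 comparisons with WT. The share of all genes that pass a fold change of 1.5 was not counted. With 1 library left out, Isl1 ranged from -0.59 to -0.40 in Isl1Cre/+ and from -0.59 to -0.39 in the mutant relative to WT, and from -0.10 to 0.087 between them, where the number of the 8 genes called ranged from 0 to 1. Between mutant and Isl1Cre/+ it turned to -0.015 with library size only and -0.0037 with no filter. The log2 count ratios with 1 Cre genotype, where p cannot pass 0.1 in an exact test, were -0.45 (Isl1Cre/+) and -0.39 (mutant) for Isl1 to Pou4f1 and -0.4997 and -0.5004 for Isl1 to Isl2, and for all Cre carriers with 1 library left out they were -0.55 to -0.32 and -0.60 to -0.38. The replicate block gave -0.48 for Isl1 in each comparison with WT and changed no call of the 8 genes (185 calls over all genes became 236 in Isl1Cre/+ against WT). No adjusted p of a member was under 0.05 in any alternative. Over all genes, calls in Isl1Cre/+, mutant and Cre carriers against WT and in mutant against Isl1Cre/+ numbered 185, 42, 59 and 221, with no filter 845, 408, 634 and 1028, with pan-neuronal sums 105, 20, 15 and 220, with their median ratios 155, 11, 27 and 256, and with 100 counts in every library 104, 35, 47 and 139. With a library left out they ranged from 102 to 340, 40 to 132, 52 to 267 and 167 to 407. Without both WT library 1 and mutant library 2 they were 182 in the mutant and 170 in Cre carriers. Higher and lower calls in the mutant against WT were 8 and 34, but 18 and 2 with pan-neuronal sums, and in Cre carriers 18 and 41, but 13 and 2.

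Of the other 7 genes, these kept their sign in all alternatives: Pou4f3 in the mutant against WT (-0.19 to -0.030) and against Isl1Cre/+ (-0.31 to -0.10), Runx1 in the mutant against Isl1Cre/+ (-0.26 to -0.038), and Pou4f2 and Tlx3 in Isl1Cre/+ (-0.20 to -0.020 and -0.20 to -0.059) and Cre carriers (-0.18 to -0.029 and -0.20 to -0.0048) against WT. In the remaining comparisons signs turned. With pan-neuronal sums these were Pou4f1 (0.026 in Isl1Cre/+, 0.025 in the mutant and 0.025 in Cre carriers relative to WT), Pou4f2 (0.00029), Tlx3 (0.043) and Prdm12 (0.066) in the mutant, Pou4f3 (0.054) and Prdm12 (0.064) in Cre carriers, and Prdm12 between mutant and Isl1Cre/+ (0.0040). This scaling moved the median of all genes to 0.049 (Isl1Cre/+), 0.11 (mutant), 0.081 (Cre carriers) and 0.058 (mutant against Isl1Cre/+), and relative to it each of these values was below 0, at -0.11 to -0.017. Prdm12 also turned to -0.00052 with 100 counts in every library and -0.0043 with all genotypes in 1 fit (Isl1Cre/+ against WT), and to 0.0038 with library size only and 0.0025 with no filter (Cre carriers). Between mutant and Isl1Cre/+, Isl2 turned to -0.015 with library size only and -0.0065 with no filter, and Pou4f2 to -0.0060 with library size only, which moved the median of all genes to -0.024, so that Isl1, Isl2 and Pou4f2 stood at 0.0097, 0.0090 and 0.018 relative to it. With median ratios of pan-neuronal genes, added after seeing the data, Prdm12 turned to 0.021 (mutant), 0.038 (mutant against Isl1Cre/+) and 0.021 (Cre carriers), Pou4f1 to 0.033 (mutant against Isl1Cre/+) and Pou4f3 to 0.010 (Cre carriers), all of them at -0.058 to -0.020 relative to the median of all genes. With 1 library, or both of those named, left out, ranges that crossed 0 were, in Isl1Cre/+ against WT, Isl2 (-0.085 to 0.090), Pou4f1 (-0.057 to 0.019), Pou4f3 (-0.043 to 0.16), Runx1 (-0.13 to 0.31) and Prdm12 (-0.031 to 0.024). In the mutant against WT they were Isl2 (-0.030 to 0.13), Pou4f1 (-0.18 to 0.038), Pou4f2 (-0.17 to 0.040), Tlx3 (-0.19 to 0.066), Runx1 (-0.30 to 0.12) and Prdm12 (-0.16 to 0.12). Between mutant and Isl1Cre/+ they were Isl2 (-0.063 to 0.12), Pou4f1 (-0.14 to 0.049), Pou4f2 (-0.063 to 0.13), Tlx3 (-0.039 to 0.11) and Prdm12 (-0.16 to 0.093), and in Cre carriers against WT Isl2 (-0.035 to 0.073), Pou4f1 (-0.097 to 0.0061), Pou4f3 (-0.11 to 0.030), Runx1 (-0.21 to 0.21) and Prdm12 (-0.064 to 0.061). The cause was not tested.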
